A study of Mus musculus with 7 samples.

Results

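Stra8, Meioc, Ythdc2 and Zglp1 are the 4 genes described here, of 31053 genes counted, and they were chosen by name as regulators of the entry of germ cells into meiosis. STRA8 is a transcription factor made in germ cells that receive retinoic acid, and together with its partner MEIOSIN it switches on meiotic genes. ZGLP1 is a GATA-like transcription factor that acts downstream of bone morphogenetic protein (BMP) signals in the female germ line. MEIOC and YTHDC2, an RNA helicase with a domain that reads N6-methyladenosine (m6A), form a complex on RNA that removes the mitotic program once meiosis has begun. In the mouse ovary, germ cells stop dividing, pass through a last round of DNA replication and enter meiotic prophase over a few days of fetal life, which is the window covered in most detail below.

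Cells of pooled C57BL/6J gonads were captured by droplet single-cell RNA sequencing in 7 libraries, and transcripts were counted as unique molecular identifiers (UMIs). The labels give this strain for every library and name no allele, transgene or treatment. The youngest library is of E11.5 gonads. The others are labelled as ovaries, 4 of them fetal (E12.5, E14.5, then E16.5 and E18.5) and the remaining ones from after birth (P1, P5). Gonads of several animals were pooled for each library, so there is no second sample at any age, no spread between animals can be given, and age cannot be told apart from library. No test was therefore run between ages, and cells were not used as replicates.

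A cell with at least 200 genes was called a germ cell where it held at least 3 UMIs of Dazl, Ddx4 and Pou5f1 together, 3 genes that none of the results below concerns. This gave 4871 germ cells of 50823 cells. E14.5 gave 2714 of them and E16.5 gave 1024. Before E14.5 there were 38 (E11.5) and 348 (E12.5), and after E16.5 there were 439 (E18.5), 246 (P1) and 62 (P5). Levels are in CPM, the UMIs of a gene among 1000000 UMIs of a class of cells. Parentheses hold 95% exact intervals, which cover counting error only. The median depth of germ cells ranged from 12107 UMIs per cell at E18.5 to 60954 at P5. Of 8 other germ cell genes, such as Mael and Tex101, 7 reached 20 CPM in the E14.5 germ cells, and mesenchymal cells of that library held them at between 1.05% and 3.92% of the germ cell level. This range is used below as the background level of germ cell genes in somatic cells. The 4 genes differ in length and in how their 3′ ends were counted, so levels are compared between ages and cells and not between genes.

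A few features of the libraries bear on these values. A UMI of Ddx3y, Eif2s3y, Uty or Kdm5d, which lie on the Y chromosome, was found in 21 of 348 germ cells at E12.5 (6.03%, 95% exact binomial interval 3.77 to 9.08) and in 14 of 38 at E11.5, but in 1 of 2714 at E14.5. The library labelled E12.5 ovary thus held cells with Y-linked transcripts, in germ and somatic classes alike. Between 20.3% and 64.5% of the germ cells of a library also held at least 3 UMIs of a somatic marker list, 718 of 2714 at E14.5, and they were kept. At E12.5, 80 of 110 such cells reached the endothelial list, where endothelial cells were 0.999% of the library. At E14.5, 602 of the 718 reached the supporting and epithelial list. Whether these UMIs came from somatic RNA or from germ cells was not tested. In all, 907 of 49901 distinct barcodes occurred in more than 1 library, with at most 131 shared by a pair of libraries. How many would be shared by chance was not tested.

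The sequence before the RefSeq start is shown for 3 of the genes, since the promoter set used held no window for Ythdc2. Each line gives the 250 bases before the RefSeq start on GRCm38.p6, 5′ to 3′ on the strand of the gene, with capitals at every match to 3 sequences searched on both strands. AGGTCA is the half-site of retinoic acid receptors, GGCGCC is a GC-rich site of the BMP effectors of the SMAD family, and CNCCTCAG is a sequence bound by STRA8. The windows are chr6:34920698-34920947 on the plus strand for Stra8, chr9:21067094-21067343 on the minus strand for Zglp1 and chr11:102665335-102665584 on the plus strand for Meioc.
Stra8: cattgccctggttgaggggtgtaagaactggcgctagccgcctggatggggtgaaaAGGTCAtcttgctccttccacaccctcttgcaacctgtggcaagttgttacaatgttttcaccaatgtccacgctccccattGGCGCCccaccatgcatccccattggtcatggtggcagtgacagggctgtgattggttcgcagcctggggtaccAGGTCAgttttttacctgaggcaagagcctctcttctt
Zglp1: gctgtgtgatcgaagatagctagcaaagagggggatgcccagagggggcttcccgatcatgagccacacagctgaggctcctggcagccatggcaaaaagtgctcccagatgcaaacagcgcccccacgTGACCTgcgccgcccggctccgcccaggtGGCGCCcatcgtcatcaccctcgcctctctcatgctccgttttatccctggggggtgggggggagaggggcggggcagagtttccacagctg
Meioc: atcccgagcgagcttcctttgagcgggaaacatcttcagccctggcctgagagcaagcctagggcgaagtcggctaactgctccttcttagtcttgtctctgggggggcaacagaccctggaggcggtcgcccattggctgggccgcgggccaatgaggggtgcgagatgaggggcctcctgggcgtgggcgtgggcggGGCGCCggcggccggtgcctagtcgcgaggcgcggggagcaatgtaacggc

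The Stra8 window held AGGTCA 2 times, beginning 194 and 38 bases before the start, and GGCGCC 1 time, 112 bases before it. The Zglp1 window held 1 AGGTCA on the opposite strand and 1 GGCGCC. The Meioc window held 1 GGCGCC, and CNCCTCAG was in none of the 3. Over the same 250 bases of 32851 promoters, 14.0% held AGGTCA, 9.59% held GGCGCC and 6.42% held CNCCTCAG. The matches are descriptions of these letters, and binding was not measured. In GENCODE vM21, Stra8 lies at chr6:34920163-34939344, Meioc at chr11:102663716-102682237, both on the plus strand, Zglp1 at chr9:21062393-21067093 on the minus strand, and Ythdc2 on chromosome 18. All are protein-coding. The Stra8 and Meioc windows thus lie inside the GENCODE genes, which begin before the RefSeq starts used here, and only the Zglp1 window lies outside its gene.

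Stra8 marked a short window. Germ cells of E14.5 held 45341 UMIs of it, a level of 1238 CPM (1226 to 1249). On either side, the E12.5 cells held 269 UMIs, or 34.7 CPM (30.7 to 39.1), and the E16.5 cells 1083, or 42.6 CPM (40.1 to 45.2). Only 6 UMIs were left in E18.5 cells (1.09 CPM, 0.40 to 2.37) and 8 in P1 cells (1.31 CPM, 0.566 to 2.59), and the youngest and oldest libraries held none. The level was 35.7-fold higher at E14.5 than at E12.5 (31.6 to 40.4) and 29.0-fold lower at E16.5 than at E14.5 (27.3 to 30.9). The 0 UMIs at E11.5 and P5 allow levels of up to 4.66 and 1.07 CPM, the upper ends of their intervals, so a low level in the 38 cells of E11.5 was not detectable.

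Meioc was higher at E14.5, as Stra8 was, but reached its highest level later. The E11.5 germ cells held none of it and those of E12.5 held 2.45 CPM (1.48 to 3.83). The level was 79.9 CPM (77.0 to 82.8) in the E14.5 library and 442 (434 to 450) in that of E16.5. In the later libraries it was 59.0 CPM (52.8 to 65.8) at E18.5, then 7.05 (5.10 to 9.50) in P1 cells and 0.291 (0.00736 to 1.62) in P5 cells. The first step was 32.6-fold (20.8 to 54.2), between E12.5 and E14.5. The next was a further 5.53-fold (5.31 to 5.76) to E16.5, where the level of Stra8 was 29.0-fold lower. By E18.5 the Meioc level was 7.49-fold lower (6.71 to 8.39) than at E16.5. At P5, 1 UMI was left among 62 germ cells.

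Ythdc2 had UMIs in the germ cells of every library and differed less between E12.5 and E14.5. The 38 cells of E11.5 held 4 UMIs, or 5.06 CPM (1.38 to 12.9). Mesenchymal cells of that library held 14.2 CPM, and the germ cell level was 0.355 of theirs (0.0966 to 0.912). The part of somatic RNA in the E11.5 value was not tested. The E12.5 and E14.5 cells held 25.9 CPM (22.5 to 29.8) and 38.5 CPM (36.5 to 40.5), and those of E16.5 held 162 CPM (157 to 167). From there the level was lower in each library, with 59.7 CPM (53.4 to 66.5) for E18.5, 46.1 (40.9 to 51.8) for P1 and 23.5 (18.7 to 29.3) for P5. From E12.5 to E14.5 it was 1.48-fold higher (1.28 to 1.73) and from E14.5 to E16.5 it was 4.22-fold higher (3.97 to 4.48). With the level of mesenchymal cells subtracted at each age the first step was 7.84-fold, since germ and mesenchymal levels were close at E12.5. E16.5 was thus the highest library for both partners of the MEIOC complex, and Ythdc2 was the only one of the 4 genes with more than 10 UMIs in the germ cells of P5.

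Zglp1 was scarce throughout, with 0, 11, 158, 5, 38, 18 and 10 UMIs in the germ cells of the 7 libraries in order of age. The E12.5 level was 1.42 CPM (0.708 to 2.54) and the E14.5 level 4.31 (3.67 to 5.04), against 0.197 (0.0639 to 0.459) in E16.5 cells. It was 6.90 CPM (4.88 to 9.47) in the E18.5 library, 2.95 (1.75 to 4.67) in P1 cells and 2.91 (1.39 to 5.34) in P5 cells. It was 3.04-fold higher at E14.5 than at E12.5 (1.65 to 6.21), 21.9-fold lower at E16.5 (9.20 to 68.4) and 35.1-fold higher at E18.5 than at E16.5 (13.8 to 114). Among the libraries with a Zglp1 UMI, the lowest level was in the one where Meioc and Ythdc2 were highest. In the annotation, 92.2% of the exonic bases of Zglp1, and 83.0% of its last 500, also belong to exons of Gm49373 on the same strand. Cell Ranger counts a read only where it fits a single gene, so Zglp1 levels are uncertain, and how many of its reads were not counted was not tested. Gm49373 itself had from 0 to 4 UMIs in the germ cells of a library.

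**Figure D1:**
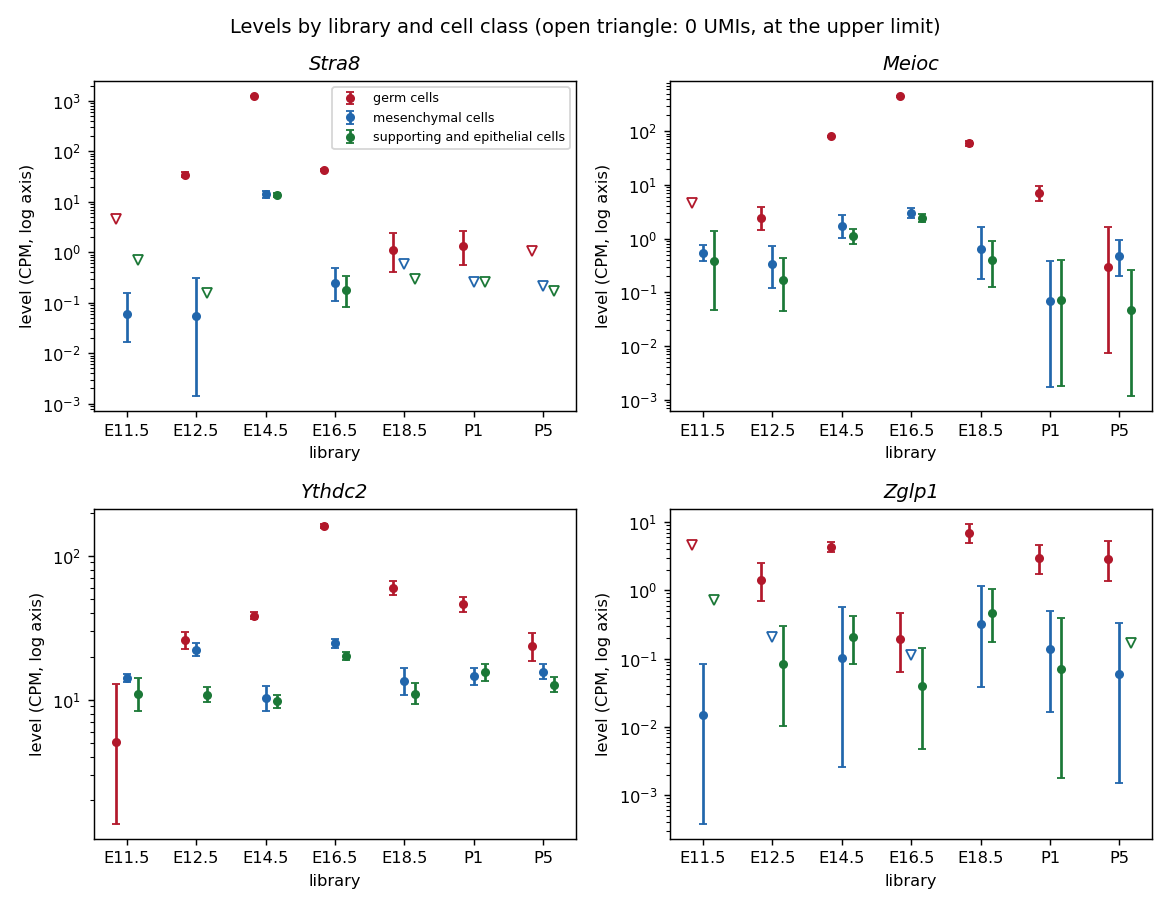
Levels of the 4 genes by library (horizontal axis) in CPM on a log axis, in germ, mesenchymal and supporting or epithelial cells, with 95% exact Poisson intervals. Open triangles mark 0 UMIs and stand at the upper limit. Stra8 peaks at E14.5 (1238 CPM), Meioc and Ythdc2 at E16.5 (442 and 162 CPM), and Zglp1 is at 0.197 CPM at E16.5.

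The cells with Y-linked transcripts at E12.5 differed in Stra8. Those 21 germ cells held 1 Stra8 UMI, or 1.78 CPM (0.0452 to 9.94), against 268 UMIs, or 37.3 CPM (32.9 to 42.0), in the 327 others. They held 40 of the 67 UMIs of Lefty1 and 55 of the 101 of Lefty2, genes of the Nodal pathway that fetal male germ cells switch on. Ythdc2 was at 19.6 CPM (9.80 to 35.1) in them and 26.4 (22.8 to 30.5) in the others, with intervals that overlap. Without all germ cells with a Y-linked UMI, Stra8 was 33.2-fold higher at E14.5 than at E12.5, Meioc 31.9-fold, Ythdc2 1.46-fold and Zglp1 3.08-fold. Male cells in which no such UMI was found would remain.

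The median gene had a higher CPM in the E16.5 germ cells than in those of E14.5, as a share of UMIs and not an amount of RNA. The median ratio over 13700 genes with at least 50 UMIs was 0.58 on the log2 scale from E14.5 to E16.5, and 0.18 over 12131 genes from E12.5 to E14.5. From E14.5 to E16.5 it was thus 1.49-fold in germ cells, beside 1.28-fold in mesenchymal and 1.26-fold in supporting and epithelial cells. Relative to the median gene, Stra8, Meioc, Ythdc2 and Zglp1 were 31.5-, 28.7-, 1.31- and 2.68-fold higher at E14.5. At E16.5, Meioc was 3.71-fold and Ythdc2 2.83-fold higher relative to the median gene, and Stra8 and Zglp1 remained lower, at ratios of 0.0231 and 0.0306. With no such scaling, 3 of the 4 genes were at least 2-fold higher at E14.5 than at E12.5, against 18.8% of all genes tested, and 7.62% were at least 2-fold lower. At E16.5 over E14.5, 2 of the 4 were higher, against 37.6% of all genes, and 2 were lower, against 14.4%. With the median set to no change, the split of called genes moved from 72.3% higher to 48.4% higher at E16.5, and from 71.2% to 58.6% at E14.5. On that scale, 14.9% of all genes were at least 2-fold higher and 10.5% lower at E14.5. At E16.5 these shares were 23.3% and 24.8%.

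In the E14.5 library the somatic classes separated Ythdc2 from the other members. Stra8 was at 14.1 CPM (11.8 to 16.6) in mesenchymal cells and 13.4 (12.2 to 14.7) in supporting and epithelial cells, which is 1.14% of the germ cell level in the first case and lies within the range of the germ cell genes given above. Meioc at 2.17% and Zglp1 at 2.36% lay within it too, but the Zglp1 value rests on 1 mesenchymal UMI (0.102 CPM, 0.00258 to 0.568). In supporting and epithelial cells Zglp1 was at 0.206 CPM (0.0827 to 0.424), from 7 UMIs. The source of these somatic UMIs of E14.5 was not tested. For Meioc the younger ages were less clear. At E12.5 its mesenchymal level was 13.7% of the germ cell level, from 6 UMIs. The 4 germ cell genes that reached 20 CPM in germ cells of that library ranged from 0.281% to 1.57%. Of those below 20 CPM, Gtsf1 and Tex101 were at 0.746% and 0.646%. Tdrd1 (2.06 CPM) and Taf7l (2.97 CPM), with levels near that of Meioc, were at 32.5% and 35.8%. At E11.5 mesenchymal cells held 36 UMIs of Meioc (0.540 CPM) and germ cells none. Ythdc2 was at 10.3 CPM (8.38 to 13) in E14.5 mesenchymal cells, 26.8% of its germ cell level, and between 10.3 and 24.8 CPM in the mesenchymal cells of all 7 libraries. At E12.5 the germ cell level of Ythdc2 was 1.16-fold that of mesenchymal cells (0.975 to 1.38), an interval that includes no difference. At E16.5 it was 6.55-fold (6.07 to 7.07).

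The level of Ythdc2 was higher at E16.5 than at E14.5 outside the germ line too. The ratio in mesenchymal cells was 2.41-fold (1.96 to 2.99) and in supporting and epithelial cells 2.06-fold (1.82 to 2.34), where the median gene was 1.28-fold and 1.26-fold higher. Relative to the median gene of each class, the step was 2.83-fold in germ cells, 1.88-fold in mesenchymal cells and 1.64-fold in supporting and epithelial cells. Between E12.5 and E14.5 the level of Ythdc2 in mesenchymal cells was lower, at a ratio of 0.461 (0.367 to 0.575), while that of germ cells was higher. That the changes differ between classes was not tested.

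Per cell, the 4 genes gave different distributions. At E12.5, 278 of 348 germ cells held no Stra8 UMI, and 5 cells with at least 10 UMIs held 38.7% of all Stra8 UMIs. At E14.5, 166 of 2714 cells held none, the median was 14 UMIs, the quartiles were 6 and 25, and the highest cell had 85. At E16.5, 739 of 1024 cells again held none, while 27 cells with at least 10 UMIs held 49.1% of the Stra8 UMIs of that library. Low Stra8 at E12.5 and E16.5 was thus spread unevenly over cells. Meioc at E16.5 was found in 956 of 1024 cells, with a median of 9 UMIs, quartiles of 4 and 15 and a highest value of 61. Ythdc2 was found in 886 of them, with a median of 3 UMIs and a highest value of 18. Zglp1 never exceeded 2 UMIs in a germ cell at any age.

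**Figure D2:**
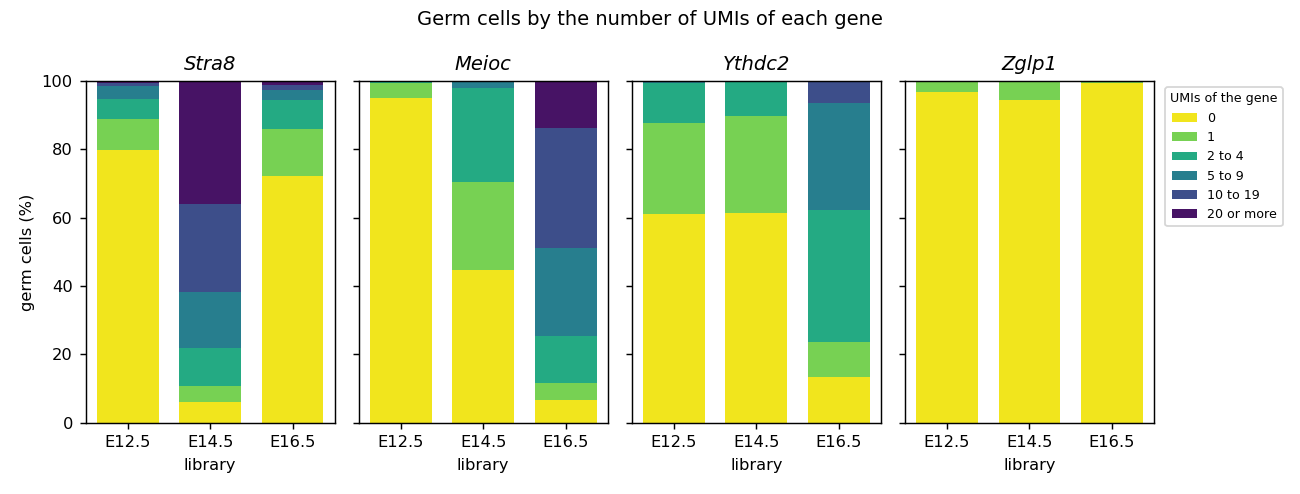
Share of germ cells in percent (vertical axis) by the number of UMIs of each gene, at E12.5 (348 cells), E14.5 (2714 cells) and E16.5 (1024 cells), without correction for depth. Stra8 is in 93.9% of cells at E14.5, Meioc in 55.2% at E14.5 and 93.4% at E16.5, and Ythdc2 in 86.5% at E16.5, while 94.4% or more of cells hold no Zglp1 at each age.

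Shares of cells with a UMI depend on depth, so every cell was also thinned at random to 2000 UMIs, which left out 14 germ cells at E12.5, 100 at E14.5 and 47 at E16.5. Stra8 was then found in 3.89% (2.09 to 6.56), 78.9% (77.3 to 80.4) and 6.04% (4.63 to 7.72) of the germ cells at these ages, against 20.1%, 93.9% and 27.8% at full depth. In mesenchymal cells, thinned alike, it was found in 0.0597%, 2.65% and 0.0360%, from median depths of 9376, 5302 and 10128 UMIs against 23308, 12686 and 24970 in germ cells. For Meioc the thinned shares were 0.299%, 16.0% (14.6 to 17.5) and 50.3% (47.1 to 53.4), and for Ythdc2 5.39% (3.22 to 8.38), 8.0% (6.98 to 9.10) and 25.8% (23.1 to 28.7). The Ythdc2 share of mesenchymal cells was 4.77% at E12.5, close to that of germ cells, and 1.97% and 5.0% at the next ages. The thinned Zglp1 share was 0 of 334, 24 of 2614 and 0 of 977 cells, beside 3.16%, 5.64% and 0.488% at full depth. Full depth gave 4.89%, 55.2% and 93.4% for Meioc and 38.8%, 38.7% and 86.5% for Ythdc2.

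To follow the genes along the change from mitosis to meiosis, each germ cell was given a stage score from 0 to 1. It is the share of 8 synaptonemal complex genes, such as Sycp1 and Sycp3, in the UMIs of those and 7 pluripotency genes, such as Sox2 and Tfap2c. None of the 4 regulators and none of the genes that gate germ cells is in the score. At E12.5, 215 of 348 cells were in the lowest of 5 equal ranges and 123 in the next. The E14.5 cells filled all ranges, with 155, 611, 631, 635 and 682 cells, and 1017 of 1024 E16.5 cells were in the highest. The ranges are slices of a continuous score, and 445 of the E14.5 cells were within 0.02 of a boundary.

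Along the score at E14.5, Stra8 and Meioc were higher in each range than in the one before. Stra8 went from 167 CPM (152 to 184) to 606 (591 to 621), 1214 (1191 to 1237), 1784 (1754 to 1815) and 2034 (2001 to 2067), and the intervals of neighbours do not overlap. Meioc went from 10.0 CPM (6.60 to 14.6) to 23.5 (20.6 to 26.6), 69.3 (63.9 to 75), 124 (117 to 133) and 156 (147 to 166). Ythdc2 went from 21.5 CPM (16.3 to 27.8) to 55.9 (50.6 to 61.7), where the intervals of neighbours overlap except for the last pair, 42.8 (38.3 to 47.8) and 55.9. Zglp1 did not follow the score. It was 2.60, 5.23, 4.42, 3.98 and 3.82 CPM, and its intervals overlap in all 5 ranges.

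Cells of like score but different age did not hold like levels. In the lowest range, Stra8 was 7.41 CPM (5.16 to 10.3) at E12.5 and 167 at E14.5, and in the next range it was 74.4 (64.8 to 85.0) and 606. In the highest range it was 2034 CPM at E14.5 and 42.8 (40.2 to 45.4) at E16.5. Meioc in that range was 156 CPM at E14.5 and 443 (435 to 451) at E16.5, and Ythdc2 55.9 and 163 (158 to 168). Ythdc2 was alike at E12.5 and E14.5 within the lowest range, at 21.0 (17.0 to 25.5) and 21.5 CPM. Within the E12.5 library, Stra8 was higher in the second range than in the first, and the 8 cells of the third range had 243 CPM (144 to 383). Because the highest range is open at 1, the E16.5 cells lie closer to its top, with a median score of 0.990 over all E16.5 germ cells.

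**Figure D3:**
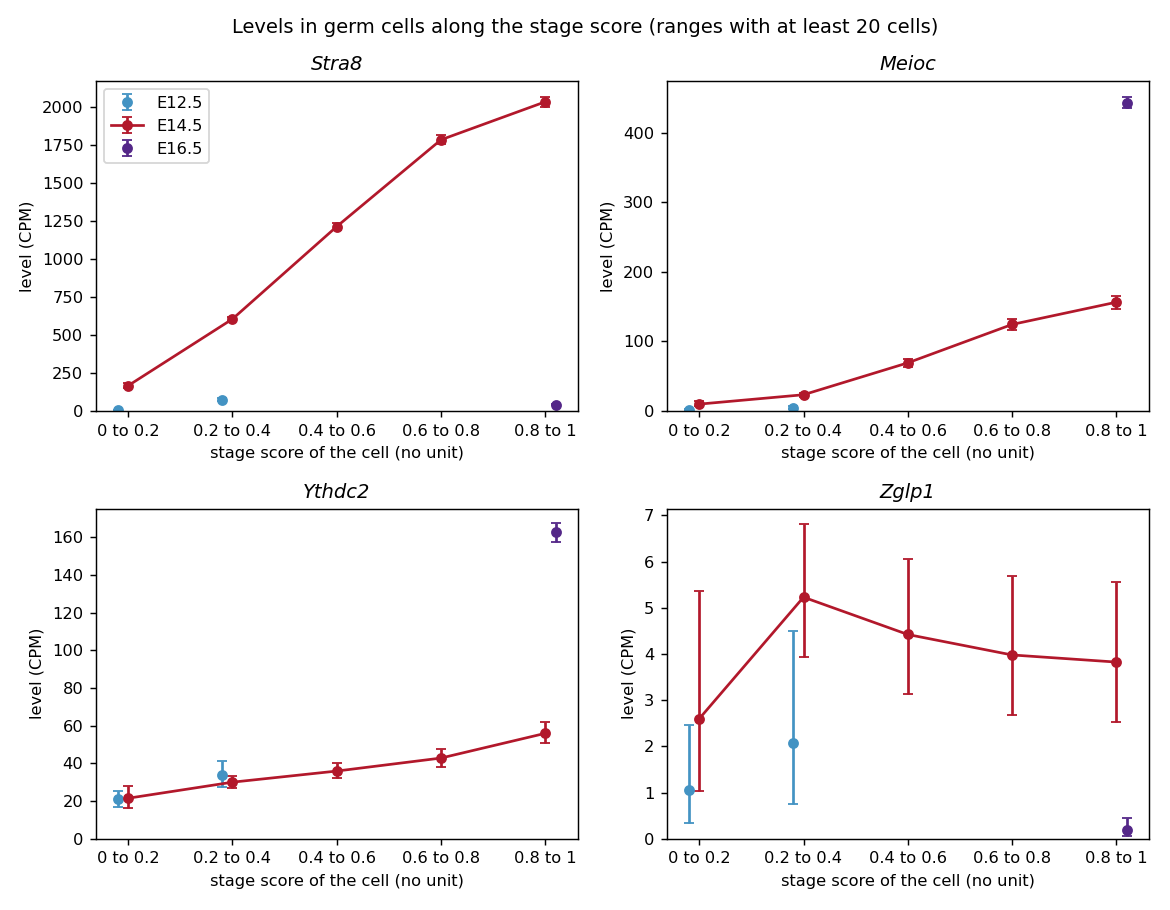
Level of each gene in CPM (vertical axis) in germ cells by range of the stage score, for E12.5, E14.5 and E16.5, with 95% exact Poisson intervals. Ranges with fewer than 20 cells are left out. Stra8 and Meioc are higher along the score at E14.5 (167 to 2034 and 10.0 to 156 CPM), and E16.5 cells of the highest range are lower in Stra8 (42.8 CPM) and higher in Meioc (443 CPM) than E14.5 cells there.

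Whether the genes occurred in the same cells was read at 2000 UMIs per cell. Of the E14.5 germ cells, 2062 then held Stra8 and 552 did not. At full depth only 166 of 2714 held none, so most of the 552 had lost their Stra8 UMIs in thinning. Meioc was found in 18.1% (16 to 19.9) of those with Stra8 and 8.15% (6.01 to 10.8) of those without, 2.22 times as often. Ythdc2 was found in 7.90% (6.78 to 9.15) and 8.33% (6.17 to 11). Zglp1 was found in 1.0% (0.631 to 1.55) and 0.543% (0.112 to 1.58), and for both genes the intervals overlap. The ratio for Meioc was 4.37 when cells were thinned to 4000 UMIs. That for Ythdc2 was 0.949 as given, 1.33 at 1000 UMIs and 1.35 at 4000 UMIs. Its direction thus differed between these draws, with no trend in depth. Each depth was drawn 1 time, and the cause was not tested. The ratio for Zglp1 was 1.87 as given and 1.11 at 4000 UMIs. Of all genes found in at least 1% of these cells, 5.79% were at least 2 times as frequent in the cells with Stra8.

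The shares of Meioc were also read within each range of the score. In the lowest range, Meioc was found in 3 of 38 cells with Stra8 (7.89%, 1.66 to 21.4) and 1 of 108 without (0.926%, 0.0234 to 5.05). In the second range it was found in 28 of 358 cells with Stra8 (7.82%, 5.26 to 11.1) and 6 of 232 without (2.59%, 0.955 to 5.54). In the third it was 14.4% (11.4 to 17.8) against 11.2% (6.10 to 18.4), in the fourth 21.1% (17.8 to 24.7) against 30.4% (17.7 to 45.8), and in the highest 25.2% (21.8 to 28.8) against 22.0% (12 to 36.0). The intervals of cells with and without Stra8 overlap in every range, which does not show that the shares are alike. A difference between ranges was not tested. In the 3 upper ranges the cells without Stra8 number only 116, 46 and 50. At full depth, Stra8 was found in 95.7%, 98.3% and 98.5% of the cells of these ranges. Most of those called without it had thus lost its UMIs in thinning, so these shares cannot compare cells with and without Stra8 there. At E16.5, Ythdc2 was found in 24.8% (21.1 to 28.9) of the cells with Meioc and 26.7% (22.9 to 30.9) of those without, so no association between the transcripts of the 2 partners was detectable at this depth.

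**Figure D4:**
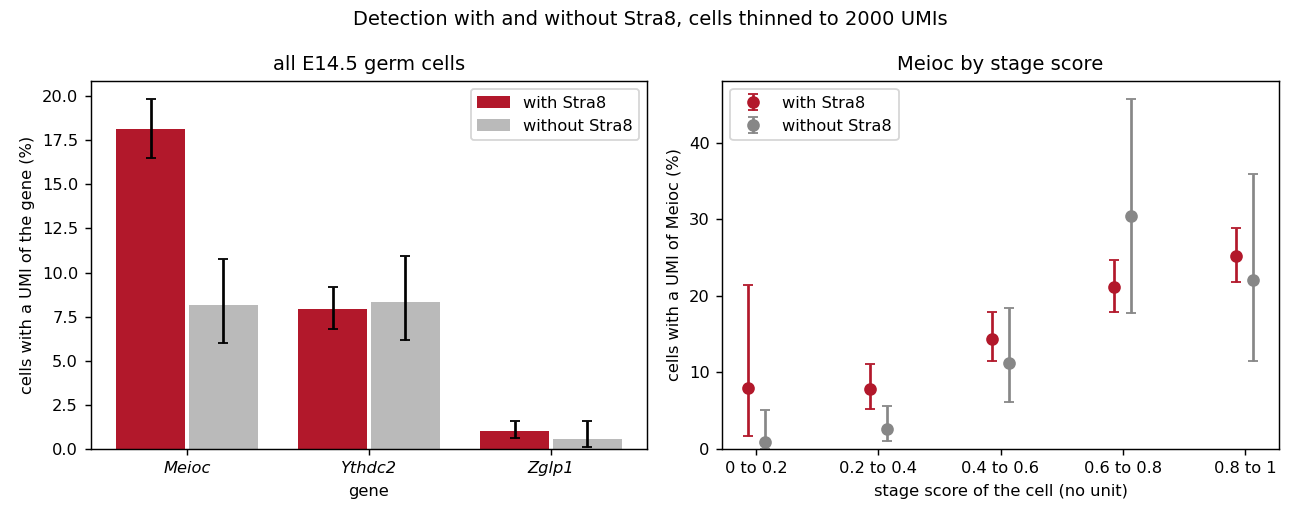
Share of E14.5 germ cells with a UMI of each gene in percent (vertical axis), among cells with and without Stra8 after thinning to 2000 UMIs, with 95% exact binomial intervals. Left, all germ cells for Meioc, Ythdc2 and Zglp1. Right, Meioc by range of the stage score. Over all ranges the shares are 18.1% with Stra8 and 8.15% without. Within each range the intervals overlap. The cells called without Stra8 in the upper ranges are few, and most of them held it at full depth. The shares by range thus cannot show whether the difference is lost.

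The partner of STRA8 and meiotic genes listed as its targets were higher with Stra8 at the first step, and most were higher still at E16.5. Whether each gene of this list depends on STRA8 was not tested. Of 15 genes on this list, 14 could be counted at E14.5. All 14 were at least 2-fold higher than at E12.5, against 18.8% of all genes. Relative to the median gene, 13 of 14 were higher (92.9%, against 14.9% of all genes). The list median was 2.56 on the log2 scale, against 0.18 over all genes. Meiob, which acts in recombination, was 44.4-fold higher (12.2 to 368), Prdm9, which sets the places of recombination, 20.4-fold (10.7 to 44.8) and Rad51ap2 19-fold (7.35 to 70.1). Mei1, needed for DNA breaks, had 0 UMIs at E12.5 and was at least 16.1-fold higher at E14.5, taking 3 UMIs as the floor in the E12.5 cells. At E16.5, 12 of 15 were higher still (against 37.6% of all genes), with a median of 2.63, and 1 was lower. Relative to the median gene, 11 were higher (73.3%, against 23.3% of all genes) and 2 lower (13.3%, against 24.8%). Meikin, a kinetochore regulator of meiosis I, was 113-fold higher than at E14.5 (43.8 to 418), Rad51ap2 21.4-fold (19.2 to 23.9) and Tex15 18.2-fold (17.7 to 18.8). The gene that was lower was Rec8, the meiotic cohesin subunit, which had been 6.93-fold higher (5.94 to 8.14) at E14.5 and was then 20.0-fold lower at E16.5 (17.3 to 23.2). Supporting and epithelial cells held Rec8 at 75.9 CPM at E16.5, and without the germ cells that reach a somatic list the step was 45.8-fold. Gm4969, listed in RefSeq as a synonym of Meiosin, the partner of Stra8, was 0.645 CPM at E12.5, 5.54 at E14.5 and 34.2 at E16.5, and its highest level followed that of Stra8.

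Of 13 genes of the retinoic acid pathway that could be counted, 4 were higher at E14.5 (30.8%, against 18.8% of all genes) and none was lower. At E16.5, 2 were higher (15.4%, against 37.6%) and 6 lower (46.2%, against 14.4%). Relative to the median gene, 1 was higher (7.69%, against 23.3% of all genes) and 7 lower (53.8%, against 24.8%). At the first step, Rdh10, which starts the synthesis of retinoic acid from retinol, was 4.13-fold higher (2.82 to 6.27), the retinaldehyde dehydrogenase Aldh1a1 4.08-fold (2.51 to 7.09), the degrading enzyme Cyp26b1 3.88-fold (1.26 to 19.4) and the binding protein Crabp2 3.39-fold (2.63 to 4.44). Aldh1a1 stood at 8.95 CPM in germ cells at E14.5 and at 182 CPM in supporting and epithelial cells of that age, and without the germ cells that reach a somatic list the step was 2.52-fold. The part of somatic RNA in it was not tested further. At E16.5, Crabp2 was 21.9-fold lower and Crabp1, another binding protein, 9.71-fold lower than at E14.5, Cyp26b1 was 3.81-fold lower, and Aldh1a2 3.55-fold higher (2.93 to 4.31). The other higher gene, Aldh1a1, was at 2.53-fold, and at 1.31-fold without the germ cells that reach a somatic list. The receptors Rara and Rarg were among the lower genes, with ratios of 0.331 and 0.367.

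Of 13 genes of the BMP pathway, 5 were higher at E14.5 (38.5%, against 18.8% of all genes) and none was lower. At E16.5, 4 of 14 were higher (28.6%, below the 37.6% of all genes) and 5 lower (35.7%, against 14.4%). The homeobox target Msx1 was 9.46-fold higher at E14.5 (7.34 to 12.4), at 74.5 CPM against 7.87, Smad9 4.76-fold (1.80 to 17.8), and the targets Id2 and Id1 3.55-fold (3.21 to 3.95) and 2.82-fold (2.62 to 3.04). Id2 was higher at E14.5 in somatic cells as well, from 208 to 699 CPM in supporting and epithelial cells and from 466 to 1095 in mesenchymal cells, and was lower in both at E16.5, at 149 and 508. At E16.5, Msx2 was 30.4-fold lower and Msx1 8.19-fold lower, while the receptor Bmpr2 was 6.20-fold higher (5.63 to 6.84) and the shared effector Smad4 3.79-fold (3.52 to 4.09). The 5 lower genes, Id2, Id3, Msx1, Msx2 and Gata2, are all targets on this list, and the 4 higher ones are receptors or SMAD genes. The remaining target, Id1, was within 2-fold, at a ratio of 1.21. Among the higher genes, Bmpr1b was low in germ cells, at 0.519 CPM at E14.5 and 1.38 at E16.5. Supporting and epithelial cells held it at 8.31 and 22.3 CPM, and the part of somatic RNA in its germ cell values was not tested. Relative to the median gene, 2 were higher (14.3%, against 23.3% of all genes) and 6 lower (42.9%, against 24.8%). Bmpr2 and Smad4 were higher at E16.5 in mesenchymal cells as well, from 32.3 to 139 and from 45.0 to 127 CPM.

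Of 12 RNA partners of YTHDC2 and members of the m6A machinery, 1 was at least 2-fold higher at E14.5 (8.33%, against 18.8% of all genes), the demethylase Alkbh5 at 2.18-fold (2.0 to 2.38), and none was lower. At E16.5, 5 were higher (41.7%, close to the 37.6% of all genes), among them Virma, a subunit of the methyltransferase complex, at 3.45-fold (3.18 to 3.75), the exonuclease Xrn1, a partner of YTHDC2, at 2.52-fold (2.32 to 2.73), the methyltransferase subunit Mettl14 at 2.28-fold and the reader Ythdf3 at 2.27-fold. Somatic cells were higher in these genes as well. From E12.5 to E14.5, Alkbh5 went from 43.6 to 88.6 CPM in supporting and epithelial cells and from 48.3 to 85.3 in mesenchymal cells. From E14.5 to E16.5, Xrn1 went from 32.7 to 98.0 and from 34.0 to 98.4 CPM in these classes. Virma went from 33.0 to 60.0 and from 31.2 to 65.4 CPM, and Mettl14 and Ythdf3 were higher in both classes too. The median of the list was 0.50 at E16.5, beside 0.58 for all genes. Relative to the median gene, 1 of the 12 was higher at E16.5 (8.33%, against 23.3% of all genes) and none at E14.5 (against 14.9%).

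Of 11 repressors of meiotic entry counted, none was higher and 2 were lower at E14.5 (18.2%, against 7.62% of all genes). These were Tet1, a 5-methylcytosine dioxygenase, 3.32-fold lower, and Nanos3, an RNA-binding protein of early germ cells, 2.41-fold lower. Both were lower again at E16.5, by 6.18-fold and 17-fold. TET1 has also been found to aid the demethylation of meiotic genes, so its place among repressors is uncertain, and its role was not tested here. At E16.5, 1 of 11 was higher (9.09%, against 37.6% of all genes) and 2 lower (18.2%, against 14.4%). Relative to the median gene, 1 was higher (9.09%, against 23.3% of all genes) and 4 lower (36.4%, against 24.8%). Mga, the partner of MAX in a repressor complex and the higher gene, was 3.45-fold higher (3.31 to 3.60) at E16.5 and was higher in mesenchymal cells too, from 54.4 to 139 CPM.

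Of 16 mitotic genes, 5 (31.2%, against 7.62% of all genes) were at least 2-fold lower at E14.5, 1 was higher (6.25%, against 18.8%) and the other 10 were within 2-fold, with a median of −0.58. Mki67, a marker of dividing cells, was 5.51-fold lower, and the kinetochore genes Cenpf and Cenpe were 3.26- and 2.26-fold lower. These 3 genes were lower in somatic cells as well. In supporting and epithelial cells Mki67 went from 41.8 to 6.23 CPM, Cenpf from 120 to 19 and Cenpe from 55.2 to 9.13, and in mesenchymal cells Mki67 went from 119 to 54.4. Ccne2, a cyclin of S phase entry, was 5.99-fold higher (4.63 to 7.88). At E16.5, 7 were lower (43.8%, against 14.4% of all genes) and 6 higher (37.5%, close to the 37.6% of all genes). The M phase regulators Ccnb1, Aurkb and Cdc20 were 9.60-, 6.64- and 5.15-fold lower, while Mki67 was 10.3-fold higher (9.65 to 11). Mesenchymal cells were higher in Mki67 as well, from 54.4 to 296 CPM, and in Cenpf, from 145 to 237. They were lower in Ccnb1, from 111 to 43.0 CPM, and in Cdc20, from 92.0 to 38.3. In supporting and epithelial cells Ccnb1 went from 14.1 to 6.65 CPM and Cdc20 from 15.5 to 7.12. Aurkb went from 40.9 to 34.3 CPM in mesenchymal cells and from 4.44 to 4.79 in supporting and epithelial cells. Relative to the median gene, 3 of the 16 were higher (18.8%, against 23.3% of all genes) and 9 lower (56.2%, against 24.8%).

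Of 6 genes of the male germ line, 3 could be counted at E14.5. Of these, 2 were lower (66.7%, against 7.62% of all genes) and 1 higher (33.3%, against 18.8%). Lefty2 and Lefty1 were 477-fold (83.8 to 19041) and 39.6-fold lower than at E12.5, and Piwil4 was 2.86-fold higher (1.40 to 6.78), at 2.95 CPM. The E12.5 cells with Y-linked transcripts described above held 40 UMIs of Lefty1 and 55 of Lefty2, and the other E12.5 germ cells 27 and 46. Those others were at 3.76 and 6.40 CPM, against 0.218 and 0.0273 CPM in the E14.5 germ cells. At E16.5 only Piwil4 could be counted, 3.0-fold lower than at E14.5, where 14.4% of all genes were at least 2-fold lower.

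**Figure D5:**
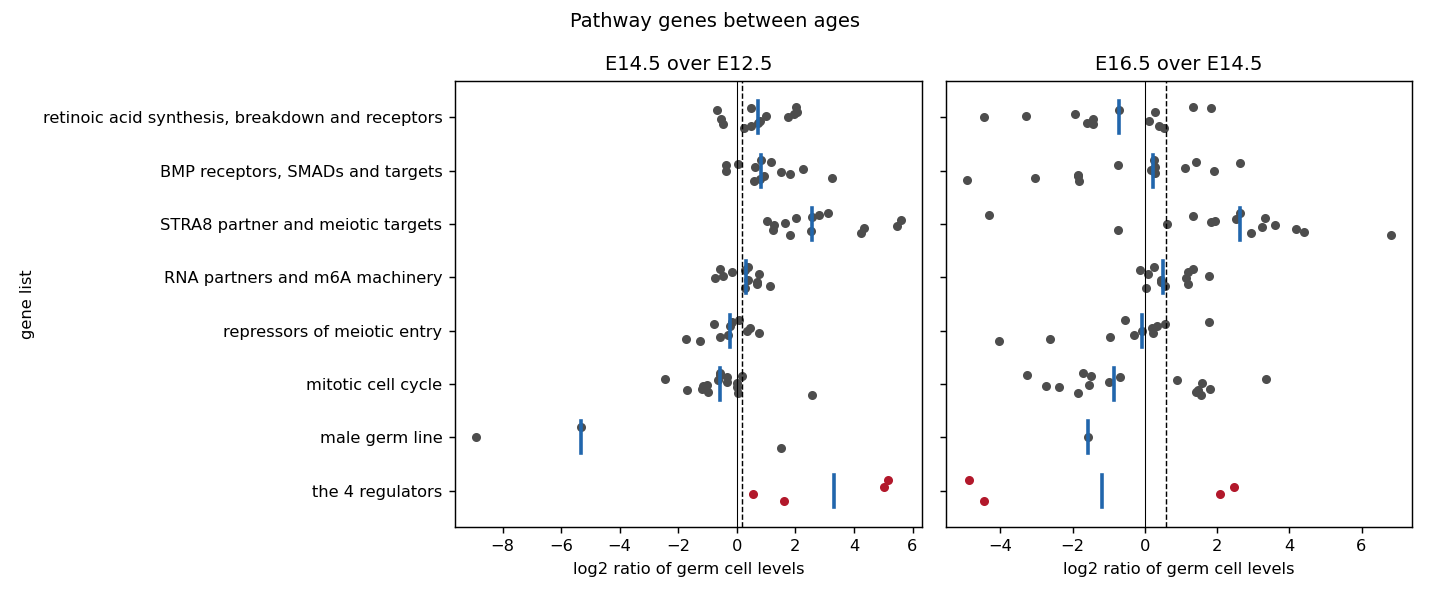
Log2 ratio of germ cell levels (horizontal axis) for each counted gene of the 7 lists and for the 4 regulators (red), E14.5 over E12.5 and E16.5 over E14.5. Blue bars are the list medians, the dashed line is the median of all genes (0.18 and 0.58) and the solid line is no change. The list of the STRA8 partner and meiotic targets has medians of 2.56 and 2.63, and the 4 regulators split in the second comparison.

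The genes whose germ cell profile was most like that of each regulator were found by Pearson's r of log2(CPM + 5) over 11 pools, which were the 7 libraries with E14.5 divided into its 5 score ranges. The pools of E14.5 share a library, so r is given as a description across pools, among 8494 genes. For Stra8 these were Msx1 (r = 0.98), Rec8 (0.98), Nsun5 (0.98), Tuba3a (0.97) and Tuba3b (0.97). The last 2 are near-identical alpha-tubulin genes, and reads that fit both are not counted. For Meioc they were Rfx7 (0.99), Trank1 (0.98), Snx14 (0.98), Iqcb1 (0.98) and Pbx3 (0.97), and for Ythdc2 Zfp654 (0.99), Rapgef6 (0.99), Stim2 (0.98), Zcwpw1 (0.98) and Chuk (0.98), all 10 highest at E16.5. For Zglp1 the values were lower, with Btbd2 (0.94), 1190007I07Rik (0.91), Mrpl52 (0.89), Nr4a1 (0.89) and Derl3 (0.87), all highest at E18.5. Among the regulators themselves, r was 0.82 for Meioc and Ythdc2, 0.57 for Stra8 and Meioc, 0.34 for Stra8 and Zglp1, 0.22 for Stra8 and Ythdc2, and 0.20 or less for Zglp1 with Meioc and with Ythdc2.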

How the data were processed

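Droplet libraries of 7 ages were made from pooled gonads with 10x v2 reagents. The authors deposited raw UMI counts from Cell Ranger 3.1.0 (mouse reference mm10), which carry no normalization. Cells with at least 200 genes were kept, from 3848 to 11060 per library, with median depths from 6349 to 11060 UMIs. UMIs were summed over germ cells, or over somatic cells assigned by the list with most UMIs, and expressed per 1000000 UMIs (CPM) with 95% exact Poisson intervals. Ratios have exact intervals conditional on the summed UMIs, and shares of cells exact binomial intervals. PCR duplicates were collapsed by UMI. With 1 library per age no test was made. Genes counted as higher or lower past 2-fold, given at least 50 UMIs in both pools together. No doublet caller was run. The named genes were the 4 regulators, up to 4 genes per list and comparison with the largest change past 2-fold, and the 5 most similar genes of each regulator. Genes outside this rule (Gm4969, Gm49373, Rara, Rarg, Id3, Gata2, Bmpr1b, Id1, Id2, Cenpf and Aldh1a1 at E16.5, Rec8 at E14.5, the Y-linked genes and the germ cell genes given for E12.5) were named after their values were seen. The regulators, lists and rules were chosen with earlier results of these data known. Python 3.11.15 with numpy 2.4.6, scipy 1.17.1 and pandas 2.3.3 was used, and the ratio procedure was tested on simulated data. Promoter sequences are from RefSeq, which held a window for 3 of the 4 genes that is used here. The alternatives tried were other germ cell gates, cell filters, weights, background and scale of the ratios, thinning depths, folds and count filters.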

Additional observations from a re-analysis of the deposited data

Results flagged for a closer look

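Ythdc2 went opposite ways in 2 cell classes from E12.5 to E14.5, with a ratio of 1.48 in germ cells and 0.461 in mesenchymal cells. The difference was not tested, since each age has 1 library.

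Cells of no class, which no comparison uses, held more of 3 genes than mesenchymal cells did. They reached no marker list or had a tie between somatic lists. At E14.5 these cells had 141 CPM of Stra8 against 14.1 in mesenchymal cells, 13.7 of Meioc against 1.73 and 18.4 of Ythdc2 against 10.3. At E16.5 they had 10.9 CPM of Stra8 against 0.247, 122 of Meioc against 3.02 and 71.7 of Ythdc2 against 24.8. At E18.5 they had 10.0 CPM of Meioc against 0.642 and 28.7 of Ythdc2 against 13.5. The median depth of these cells was 1263 UMIs at E14.5, 892 at E16.5 and 1739 at E18.5, against 12686, 24970 and 12107 in germ cells. The part of shallow germ cells below the gate in these values was not tested.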

How the results depend on the processing

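No paired analysis was possible because each age has 1 library and the result comes from no test. All 8 ratios of the 4 genes between ages kept their direction under each alternative, and 58 of 72 alternative values lay within the counting interval of the reported one. Dividing by the median ratio of all genes and leaving out germ cells with a Y-linked UMI were chosen after seeing the data. For Stra8 at E14.5 over E12.5 the ratio was 40.9 without germ cells that also reach a somatic list, 46.1 as a mean of the CPM of each cell and 31.5 relative to the median gene. For Stra8 at E16.5 over E14.5 these were 0.0303, 0.0374 and 0.0231, for Meioc 4.82, 4.57 and 3.71, and for Ythdc2 3.96, 3.55 and 2.83. With the mesenchymal level subtracted, Ythdc2 was 7.84 at E14.5 over E12.5 and 4.88 at E16.5 over E14.5. The first is a ratio to a small remainder, since germ and mesenchymal levels were close at E12.5. The share of cells with Meioc, with Stra8 over without, was 1.85 without germ cells that also reach a somatic list, 1.92 thinned to 1000 UMIs and 4.37 thinned to 4000. For Ythdc2 it was 1.33 at 1000 and 1.35 at 4000 UMIs, against 0.949 at 2000. For Zglp1 it was 3.37 without germ cells that also reach a somatic list and 1.11 at 4000 UMIs, from few cells. Of the 82 list genes counted, 26 were higher and 9 lower at E14.5 at 2-fold, where 18.8% and 7.62% of all genes were. At 4-fold these were 14 and 3, and at 1.5-fold 14 were lower. At E16.5, 30 of 82 were higher and 22 lower at 2-fold, where 37.6% and 14.4% of all genes were. The first of these list shares was close to that of all genes. At 4-fold, 11 were higher and 10 lower, and 19 were higher relative to the median gene, where 23.3% of all genes were. Shares of all genes at 4-fold and 1.5-fold were not taken. With a pseudocount of 1 CPM, all 5 of the genes most like Stra8 and 3 of 5 for each other regulator were found again. The cause of these shifts was not tested. Zglp1 values rest on few UMIs, 5 in all E16.5 germ cells, and on exons shared with Gm49373.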
